A study of Homo sapiens with 6 samples.

Results

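The genes described here are 33 genes of sterol and fatty acid synthesis, taken as a list of symbols from the enzymes, regulators and transporters of both routes. A gene was read through the array's probe set annotated to its symbol alone, and through the brightest on average where there were several. In this way 31 of the 33 were measured, among 18418 genes in all. HSD17B7 was read only by a probe set that also carries a pseudogene's symbol, and no probe set used here carried the symbol FDFT1, so neither has a value. Of the 31, 7 act in the mevalonate steps, 9 in the sterol steps, 6 in regulation and sterol transport, and 9 in fatty acid synthesis.

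RNA came from A2780, an established human ovarian cancer cell line. All arrays share that line, lentiviral infection, medium with 10% serum and a medium change at 24 hours. The label BMI1 Ctrl marks cells given the control virus of the first set, and BMI1 shRNA1 and BMI1 shRNA2 mark cells given short hairpin RNAs against BMI1, a Polycomb repressive complex subunit. The second set targets the long non-coding RNA FAL-1 in the same way, with the labels FAL-1 Ctrl, shRNA1 and shRNA2. There is 1 array for each of the 6 conditions, with RNA harvested at 96 hours. The labels call the control virus a control shRNA and give no sequence for any hairpin. They describe no separate cultures, so a p-value measures only the spread between these arrays.

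Sterol and fatty acid synthesis both start from acetyl-CoA in the cytosol. Their genes are controlled largely by the sterol regulatory element-binding proteins, which are made as membrane-bound precursors and are carried to the Golgi by the escort protein SCAP when cell sterol is low. INSIG proteins hold that escort back when sterol is plentiful. The protein encoded by SREBF2 acts mainly on cholesterol genes and that encoded by SREBF1 mainly on fatty acid genes. Dividing tumour cells use both routes to build membranes.

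Values are log2 probe set summaries as deposited, so a difference of 1 is a 2-fold difference, and a level is set only against that of the same gene on another array. Array medians lay between 6.94 and 7.09, and pairs of arrays correlated at 0.968 to 0.993 across genes. The BMI1 probe set, which also reads a readthrough transcript, stood at 26.8% of its control with hairpin 1 and at 64.0% with hairpin 2. FAL-1 knockdown was not checked here. Of 8 epithelial and ovarian markers, KRT8 read 9.04 to 11.07 over the 6 arrays, KRT18 8.45 to 9.58 and KRT19 6.21 to 8.57, while EPCAM read 6.01 to 6.53, PAX8 6.56 to 6.98, WT1 6.74 to 7.05, MUC16 5.81 to 6.18 and CDH1 5.80 to 6.09. The 5 fibroblast markers read 8.14 to 8.97 (COL1A1), 9.84 to 11.03 (COL1A2), 8.90 to 10.30 (DCN), 9.53 to 11.33 (LUM) and 6.69 to 7.92 (PDGFRB), and the 4 leukocyte markers measured read at most 6.65 (CD14), with PTPRC at most 5.10. The part of either marker list in the members' values was not tested. Each array reads a whole culture, so fewer cells with a transcript and less transcript per cell cannot be told apart.

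With the BMI1 hairpins, nearly every gene of both routes stood below its control. Against the BMI1 control, 28 of 31 members were lower with both hairpins and 1 was higher, where 30.7% of all genes were lower and 32.9% higher. The median log2 change of the members was -0.41, beside 0.01 over all genes, and 13 members lay below the 5th percentile of all genes. By 0.3 or more with both hairpins 12 members were lower (4.77% of all genes) and none higher (2.67%). By 1.5-fold or more 6 were lower (0.901%) and none higher (0.538%), the 6 being ACAT2, FDPS, SQLE, LSS, INSIG1 and FADS2. The exceptions to the common direction were SC5D, higher with both, and MSMO1 and STARD4, whose hairpins differed in sign. No member passed limma's test over all genes (adjusted p = 0.9998 for each), and 0% of all genes did. At an unadjusted p under 0.05, 5 members were lower (ACAT2, SQLE, EBP, SREBF2 and INSIG1) and none higher, beside 1.56% and 1.03% of all genes. The test rests on the spread between hairpins of a target, with 2 residual degrees of freedom, which may be technical and may include unequal knockdown.

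**Figure D1:**
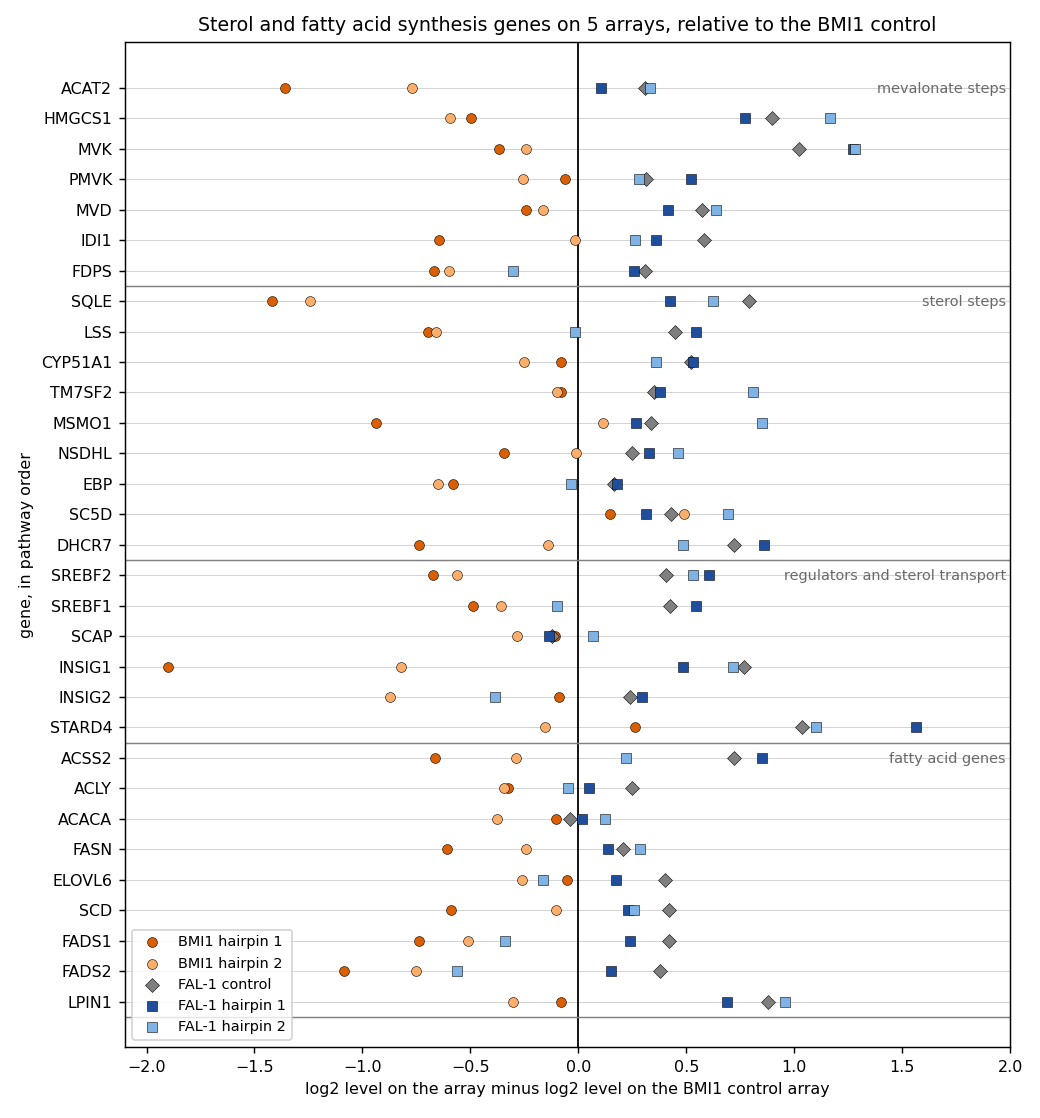
Log2 level of each of the 31 measured members on 5 arrays, minus its level on the BMI1 control array (vertical line at 0), with genes in pathway order and 1 point per array. The circles of the BMI1 hairpins lie mostly left of the line, down to -1.90 for INSIG1, and the FAL-1 control (diamonds) lies right of it for 29 genes.

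The choice of control array changed the size of the differences for the BMI1 hairpins and, for most members, not their direction. The FAL-1 control array stood above the BMI1 control array for 29 of 31 members, the others being SCAP and ACACA, while 55.1% of all genes were higher there. Its median excess over the members was 0.42, beside 0.02 over all genes. The excess was 1.5-fold or more for 8 members (1.65% of all genes): HMGCS1, MVK, SQLE, DHCR7, INSIG1, STARD4, ACSS2 and LPIN1. With 1 array on each side, no member passed limma's test of this difference (adjusted p = 1), and 7 were higher and none lower at an unadjusted p under 0.05 (1.4% and 0.793% of all genes). Set against the FAL-1 control, the BMI1 hairpins were therefore lower still: 29 of 31 members were lower with both (37.7% of all genes) and 19 by 1.5-fold or more (2.05%), with a median of -0.85. None of the 31 passed limma's test here either, with the smallest adjusted p = 0.472, for SQLE, and 23 were lower and none higher at an unadjusted p under 0.05 (3.88% and 1.79% of all genes). Both BMI1 hairpins lay below both control arrays for 27 members, as for 21.8% of all genes.

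**Figure D2:**
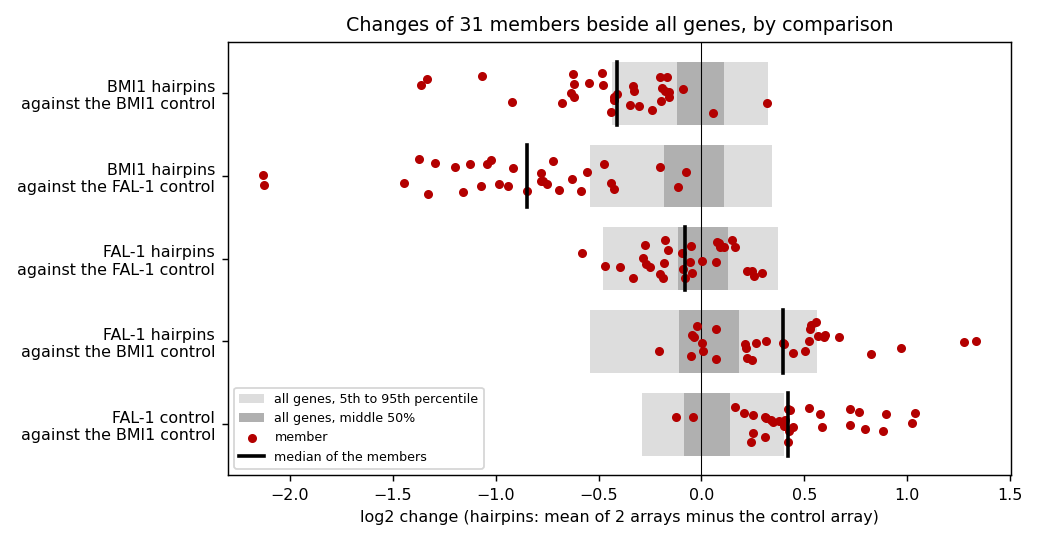
Log2 change of each of the 31 members (points) and their median (black bar) in 5 comparisons, with the spread of all 18418 genes as grey bands; hairpin values are means of 2 arrays. The median of the members moved from -0.41 to -0.85 for the BMI1 hairpins and from 0.40 to -0.08 for the FAL-1 hairpins when the FAL-1 control replaced the BMI1 control.

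Against their own control, the FAL-1 hairpins were lower for some members and higher for others. There 9 members were lower with both hairpins (27.7% of all genes) and 6 higher (37.2%), with a median of -0.08 beside 0.03 over all genes. Of the 9 fatty acid genes 5 were lower with both and 1 higher, with medians of -0.19 with hairpin 1 and -0.30 with hairpin 2. The mevalonate, sterol and regulator genes had 2 of 7, 1 of 9 and 1 of 6 lower. None reached 0.3 with both hairpins in either direction, where 3.87% of all genes were lower and 3.28% higher by that much, or 1.5-fold, where 0.635% and 0.576% were. No member passed limma's test (smallest adjusted p = 0.999), and none had an unadjusted p under 0.05 (1.5% of all genes lower and 1.55% higher). Against the BMI1 control the same arrays read 21 members higher with both hairpins (41.8% of all genes) and none lower (28.1%), with a median of 0.40. By 0.3 or more 13 were higher (8.59%), and by 1.5-fold or more HMGCS1, MVK, STARD4 and LPIN1 were (2.47%). No member passed there either (smallest adjusted p = 0.410, for MVK), and 9 were higher and none lower at an unadjusted p under 0.05 (5.25% and 2.95% of all genes). These comparisons share the FAL-1 hairpin arrays, so the difference between them is the difference between the control arrays. Both FAL-1 hairpins lay above both control arrays for 6 members, MVK, TM7SF2, NSDHL, SREBF2, STARD4 and ACACA (26.6% of all genes), and below both for none (17.2%). Both BMI1 hairpins were below and both FAL-1 hairpins above their own control for 5 members, MVK, TM7SF2, NSDHL, SREBF2 and ACACA (6.43% of all genes).

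The 6 arrays thus fell into an order for many members. All 3 arrays of the FAL-1 set were above all 3 of the BMI1 set for 19 members, and below for none, where 12.4% of all genes were above and 6.35% below. Both FAL-1 hairpins were above both BMI1 hairpins for 27 members (24.5% of all genes). The exceptions were SC5D, SCAP, INSIG2 and ELOVL6. The labels give no batch, so the target, the set and any handling that went with a set cannot be told apart in these comparisons.

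The mevalonate steps turn acetyl-CoA into the isoprenoid units of sterols. All 7 members measured were lower with both BMI1 hairpins than in the BMI1 control, with a median of -0.33 (30.7% of all genes were lower with both). All 7 were higher in the FAL-1 control than in the BMI1 control, with a median of 0.57 (55.1% of all genes were higher). ACAT2 is the cytosolic thiolase that joins acetyl-CoA units at the head of the route. It read 9.53 in the BMI1 control, 8.17 and 8.76 with BMI1 hairpins 1 and 2, 9.84 in the FAL-1 control, and 9.63 and 9.86 with FAL-1 hairpins 1 and 2. Both BMI1 hairpins lay below the other 4 arrays, by a mean of -1.06 ± 0.42 (SD, n = 2 hairpins) against their control, or 47.8% of it.

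HMGCS1, the hydroxymethylglutaryl-CoA synthase of the cytosol, read 9.52 in the BMI1 control, 9.03 and 8.93 with the BMI1 hairpins, 10.42 in the FAL-1 control, and 10.29 and 10.69 with the FAL-1 hairpins. The arrays of the FAL-1 set were all above those of the BMI1 set, and the BMI1 hairpins were below both controls, at -0.55 ± 0.07 (SD, n = 2 hairpins) against their own. MVK, mevalonate kinase, read 7.34, 6.97 and 7.09 in the BMI1 control and with its hairpins, and 8.36, 8.61 and 8.62 in the FAL-1 control and with its hairpins. Its sets were furthest apart in fold among the mevalonate genes, with the FAL-1 control 2.03-fold above the BMI1 control, a gap larger than the change of -0.31 ± 0.09 with the BMI1 hairpins. FDPS, which makes farnesyl diphosphate, read 9.56, 8.90 and 8.97 in the BMI1 set and 9.87, 9.82 and 9.26 in the FAL-1 set, so FAL-1 hairpin 2 also lay below both controls. Its mean change was -0.63 ± 0.05 with the BMI1 hairpins.

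IDI1, the isomerase of the isoprenoid unit, read 9.52, 8.87 and 9.50 in the BMI1 set and 10.10, 9.88 and 9.78 in the FAL-1 set. It was lower with BMI1 hairpin 1 (-0.64) and close to the control with hairpin 2 (-0.02), and it lay higher on every FAL-1 array. The phosphomevalonate kinase PMVK and the decarboxylase MVD had smaller differences, at -0.16 ± 0.14 and -0.20 ± 0.06 (SD, n = 2 hairpins). Against the FAL-1 control these 3 genes read -0.91, -0.47 and -0.78.

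The sterol steps turn farnesyl units into squalene, lanosterol and then cholesterol. Of 9 members, 7 were lower with both BMI1 hairpins against the BMI1 control (30.7% of all genes), and all 9 were higher in the FAL-1 control than in the BMI1 control (55.1%). SQLE, squalene epoxidase, which adds the first oxygen to squalene and is a rate-setting step, read 10.17 in the BMI1 control and 8.75 and 8.93 with the BMI1 hairpins. In the FAL-1 set it read 10.97 in the control and 10.60 and 10.80 with the hairpins. The hairpins agreed closely, at 37.3% and 42.3% of the BMI1 control, or 21.6% and 24.4% of the FAL-1 control. The mean change was -1.33 ± 0.13 (SD, n = 2 hairpins) against the BMI1 control and -2.12 against the FAL-1 control. With the FAL-1 hairpins SQLE was lower than the FAL-1 control by little (-0.27 ± 0.14) and higher than the BMI1 control (0.52).

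LSS, the cyclase that forms lanosterol, read 8.68, 7.98 and 8.02 in the BMI1 control and its hairpins, and 9.13, 9.23 and 8.67 in the FAL-1 control and its hairpins. Both BMI1 hairpins were below every other array, at 61.6% and 63.3% of their control. EBP, a sterol isomerase, behaved alike in the BMI1 set, with 9.37 in the control and 8.78 and 8.72 with the hairpins (-0.62 ± 0.05, SD, n = 2 hairpins), while the FAL-1 set read 9.53, 9.55 and 9.33. FAL-1 hairpin 2 stood slightly under the BMI1 control for both genes. DHCR7, the reductase that ends one branch of the route, read 10.25, 9.51 and 10.11 in the BMI1 set and 10.97, 11.11 and 10.73 in the FAL-1 set, so most of its change lay with BMI1 hairpin 1.

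MSMO1, a sterol methyl oxidase, differed widely between the hairpins. It read 11.05 in the BMI1 control, 10.11 with hairpin 1 and 11.16 with hairpin 2, and 11.38, 11.32 and 11.90 in the FAL-1 set. The change was -0.94 with BMI1 hairpin 1 and 0.11 with hairpin 2, which gives no shared direction. The dehydrogenase NSDHL followed the same order, with -0.34 and -0.01. SC5D, a sterol desaturase, ran the other way and read 9.97, 10.11 and 10.46 in the BMI1 set and 10.40, 10.28 and 10.66 in the FAL-1 set. It was the sole member above the BMI1 control with both BMI1 hairpins (0.32 ± 0.24, SD, n = 2 hairpins), and against the FAL-1 control it read -0.11. The lanosterol demethylase CYP51A1 and the reductase TM7SF2 differed by small amounts, -0.17 ± 0.12 and -0.09 ± 0.01. CYP51A1 read 10.30, 10.22 and 10.05 in the BMI1 set and 10.83, 10.83 and 10.66 in the FAL-1 set. TM7SF2 read 8.29, 8.21 and 8.19, then 8.64, 8.67 and 9.10, highest with FAL-1 hairpin 2. A second CYP51A1 probe set read 8.77, 8.68 and 8.64 in the BMI1 set and 9.32, 9.21 and 9.13 in the FAL-1 set, the same order of sets.

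Of the 6 genes of regulation and sterol transport, 5 were lower with both BMI1 hairpins than in the BMI1 control (30.7% of all genes). SREBF2 read 9.60 in the BMI1 control, 8.93 and 9.04 with the BMI1 hairpins, 10.01 in the FAL-1 control and 10.20 and 10.13 with the FAL-1 hairpins. Its BMI1 hairpins lay below both controls and its FAL-1 hairpins above both. The changes were -0.62 ± 0.08 and 0.16 ± 0.05 (SD, n = 2 hairpins) against their own controls. The test of the difference between the targets gave 0.78 ± 0.19 (SE, limma), which did not pass (adjusted p = 0.9999). SREBF1 read 8.81, 8.32 and 8.45 in the BMI1 set and 9.23, 9.35 and 8.71 in the FAL-1 set, lower with both BMI1 hairpins and, in the FAL-1 set, with hairpin 2 only.

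INSIG1, itself a target of the sterol regulatory element-binding proteins, had the widest range of any member over the 6 arrays, 2.67. It read 8.62 in the BMI1 control, 6.72 and 7.80 with BMI1 hairpins 1 and 2, 9.39 in the FAL-1 control, and 9.11 and 9.34 with the FAL-1 hairpins. The BMI1 hairpins stood at 26.8% and 56.6% of their control, the widest gap between them among the members on the log2 scale (-1.90 and -0.82), yet both were below the other 4 arrays. INSIG2, its relative, was lower mainly with the second hairpin of each target: it read 7.28, 7.19 and 6.40 in the BMI1 set and 7.52, 7.58 and 6.89 in the FAL-1 set. SCAP, the escort, varied least among the members, with a range of 0.35 over the 6 arrays, from 9.14 with BMI1 hairpin 2 to 9.49 with FAL-1 hairpin 2. STARD4, a cytosolic sterol carrier, separated the sets more than the knockdowns. Its levels were 9.12, 9.39 and 8.97 in the BMI1 set and 10.16, 10.69 and 10.22 in the FAL-1 set, with the FAL-1 control 2.05-fold above the BMI1 control.

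Sequences upstream of the start sites are shown for 5 of these genes, picked because they hold matches to the elements named below. The search was made because sterol regulatory element-binding proteins largely control these routes, and most members were lower with both BMI1 hairpins. Any part of those proteins in the changes was not tested. Promoters of 29 members, 42 start sites in all, were matched by symbol in RefSeq sequences (GRCh38.p14), and the 250 bases before each start site were searched on both strands. The core of the sterol regulatory element, spelled TCACNCCAC, was in 1 of the 42 (2.38%), that of SREBF2, and in 0.883% of all 35116 promoters. The shorter spelling CACNCCAC, chosen after the first search was seen and holding all matches of the longer one, was in 6 of 42 (14.3%) against 4.87% of all promoters. The NF-Y box CCAAT was in 57.1% of the 42 against 32.0%. The Sp1 box GGGCGG was in 88.1% against 42.6%, and the E-box CACGTG in 9.52% against 6.34%. Among promoters of genes measured on the array, the shares were 0.885%, 5.08%, 32.6%, 54.7% and 7.39% in that order. Some of the 42 windows overlap because a gene has several start sites.

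In the sequences below, capitals mark the sterol element core on either strand (TCACNCCAC or CACNCCAC, reverse complement included) and the NF-Y box (CCAAT or ATTGG), and each is read 5′ to 3′ along the gene's strand. SREBF2 is on the plus strand at chr22:41832953-41833023, with its sterol core 133 bases before the start site and an NF-Y box 106 bases before it. INSIG1 is on the plus strand at chr7:155297650-155297732, and IDI1 on the minus strand at chr10:1048949-1049038, each with a shorter core and at least 1 NF-Y box. HMGCS1 is on the minus strand at chr5:43313488-43313587 with 2 NF-Y boxes, and MVK on the plus strand at chr12:109573564-109573772 with 5. Another start site of HMGCS1 held no NF-Y box, and other start sites of IDI1 held no core.
SREBF2: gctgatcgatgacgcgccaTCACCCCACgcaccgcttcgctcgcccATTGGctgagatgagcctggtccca
INSIG1: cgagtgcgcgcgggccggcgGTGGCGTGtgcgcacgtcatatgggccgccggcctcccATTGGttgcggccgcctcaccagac
IDI1: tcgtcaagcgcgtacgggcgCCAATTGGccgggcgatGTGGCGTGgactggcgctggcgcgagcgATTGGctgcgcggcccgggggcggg
HMGCS1: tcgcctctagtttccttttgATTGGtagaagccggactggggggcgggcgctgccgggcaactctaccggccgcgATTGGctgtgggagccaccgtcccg
MVK: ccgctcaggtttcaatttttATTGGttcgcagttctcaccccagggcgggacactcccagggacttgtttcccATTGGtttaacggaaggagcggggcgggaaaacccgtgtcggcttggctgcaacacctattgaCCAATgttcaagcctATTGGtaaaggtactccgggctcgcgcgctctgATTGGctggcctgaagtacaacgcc

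ACAT2, SQLE and FASN have no entry among these promoters. The 6 measured genes with a shorter core in at least 1 promoter had a median of -0.34 with the BMI1 hairpins against the BMI1 control, and the 22 measured genes without one had -0.37. In the FAL-1 control against the BMI1 control the medians were 0.43 and 0.41. The genes with a core included INSIG1, at -1.36, as well as SC5D, at 0.32. A match is not a binding site, and an absent match says only that the letters were not in the window searched.

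All 9 fatty acid genes were lower with both BMI1 hairpins than in the BMI1 control, with a median of -0.35 (30.7% of all genes were lower with both). FADS2, a front-end desaturase of polyunsaturated fatty acids, read 11.16 in the BMI1 control, 10.08 and 10.41 with the BMI1 hairpins, 11.54 in the FAL-1 control, and 11.31 and 10.60 with the FAL-1 hairpins. FADS1, the next desaturase of that route, lies beside it on chromosome 11 and read 11.06, 10.32 and 10.55, then 11.48, 11.30 and 10.72. For both genes the BMI1 hairpins and FAL-1 hairpin 2 were below both controls, and FAL-1 hairpin 1 lay between the controls. The mean changes with the BMI1 hairpins were -0.92 ± 0.24 and -0.63 ± 0.16 (SD, n = 2 hairpins).

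ACSS2 and ACLY supply cytosolic acetyl-CoA from acetate and from citrate. ACSS2 read 8.15, 7.48 and 7.86 in the BMI1 set and 8.87, 9.00 and 8.37 in the FAL-1 set, where only the BMI1 hairpins lay below the BMI1 control. ACLY read 11.42, 11.10 and 11.08 in the BMI1 set and 11.67, 11.47 and 11.37 in the FAL-1 set, below its control with every hairpin of either target. Its change with the BMI1 hairpins was -0.33 ± 0.01 (SD, n = 2 hairpins), the closest agreement of hairpins among the 9. ACACA, the carboxylase that makes malonyl-CoA, and FASN, the synthase that builds palmitate, stood at -0.24 ± 0.19 and -0.42 ± 0.26. ACACA read 10.14, 10.03 and 9.76, then 10.10, 10.15 and 10.26, and FASN 10.67, 10.07 and 10.43, then 10.88, 10.81 and 10.96. ACACA was below its control by more than 0.2 with BMI1 hairpin 2 alone, and FASN with both BMI1 hairpins. SCD, which makes oleate and palmitoleate, read 12.00, 11.41 and 11.90 in the BMI1 set and 12.42, 12.24 and 12.26 in the FAL-1 set, so that hairpin 1 carried most of its change. ELOVL6, an elongase, and LPIN1, a phosphatidate phosphatase, stood at -0.16 ± 0.15 and -0.19 ± 0.15. LPIN1 differed more between the sets, at 8.97, 8.89 and 8.67 in the BMI1 set and 9.85, 9.66 and 9.93 in the FAL-1 set. ELOVL6 was lowest with BMI1 hairpin 2 (9.82) and FAL-1 hairpin 2 (9.92) and highest in the FAL-1 control (10.48).

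The hairpins of each target were not alike. BMI1 hairpin 1, which left less BMI1 signal, was below hairpin 2 by 0.3 or more for 11 members (11.6% of all genes) and above it by as much for INSIG2 and STARD4 (11.5% of all genes). The median change of the members was -0.50 with hairpin 1 and -0.29 with hairpin 2. Any part of the BMI1 level in these gaps was not tested. With 1 array per hairpin, a hairpin and its array cannot be told apart. Genes with large gaps included INSIG1, MSMO1, IDI1, ACAT2 and DHCR7. In contrast SQLE, HMGCS1, FDPS, LSS, EBP, SREBF2 and ACLY had hairpins within 0.2 of each other. So did MVK, PMVK, MVD, CYP51A1, TM7SF2, SREBF1 and SCAP, whose mean changes were mostly smaller. The share of all genes within 0.2 was not counted.

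FAL-1 hairpin 2 differed from hairpin 1 in both directions. It was lower by 0.3 or more for 10 members (14.2% of all genes): FDPS, LSS, DHCR7, SREBF1, INSIG2, STARD4, ACSS2, ELOVL6, FADS1 and FADS2. It was higher by as much for HMGCS1, TM7SF2, MSMO1 and SC5D (12.8% of all genes). Against the FAL-1 control, hairpin 2 gave -0.94 for FADS2, -0.76 for FADS1, -0.63 for INSIG2, -0.61 for FDPS and -0.53 for SREBF1, and 0.51 for MSMO1 and 0.46 for TM7SF2. With hairpin 1 these genes read -0.23, -0.18, 0.06, -0.05 and 0.12, and -0.07 and 0.03.

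**Figure D3:**
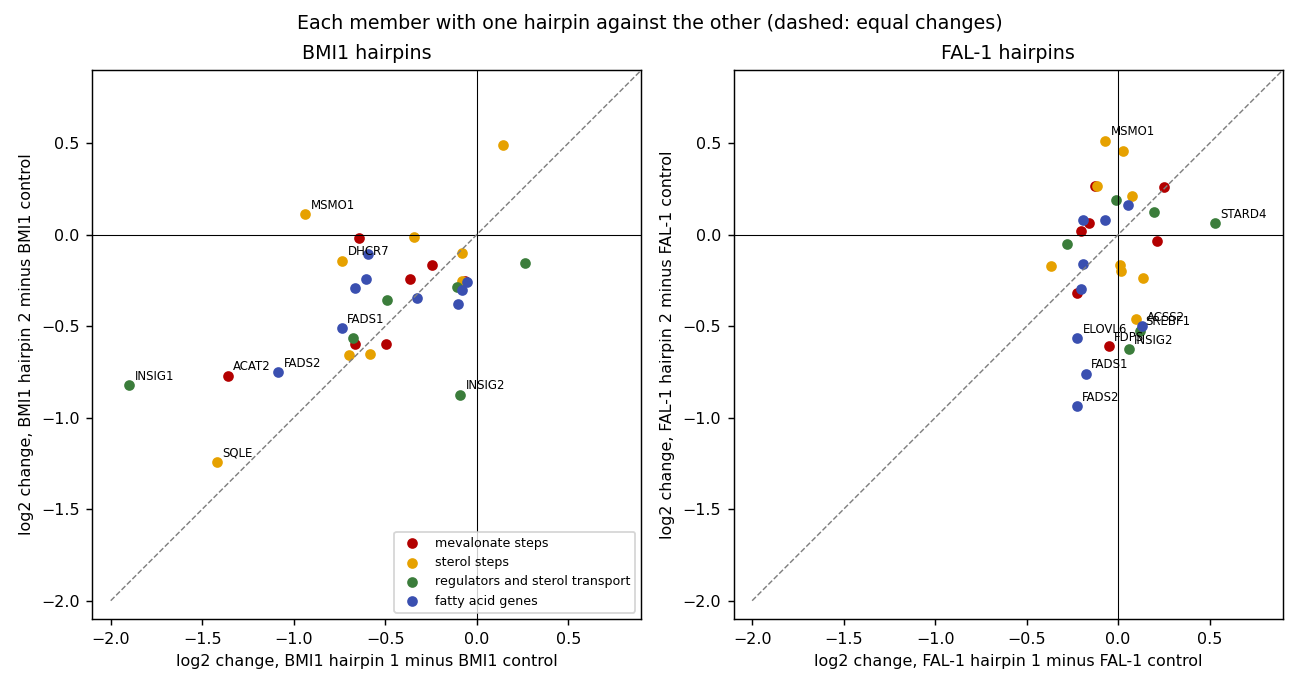
Log2 change of each member with hairpin 1 (horizontal axis) and hairpin 2 (vertical axis) of a target against its own control, coloured by role; genes with larger changes are named. In the BMI1 panel 28 points lie below 0 on both axes, from small changes down to SQLE and INSIG1; in the FAL-1 panel the points spread vertically, from FADS2 at -0.94 to MSMO1 at 0.51 with hairpin 2.

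Neighbouring pathways were counted in the same way, beside 30.7% of all genes lower and 32.9% higher with both BMI1 hairpins against the BMI1 control. Of 30 further genes of sterol uptake, storage and handling, 21 were measured, and 9 were lower and 5 higher with both BMI1 hairpins against the BMI1 control, with a median of -0.10. GRAMD1B, a sterol transfer protein, stood at -0.45 ± 0.11 (SD, n = 2 hairpins). STARD5, of the sterol carrier family, stood at -0.50 ± 0.18, and against the FAL-1 control at 0.02. Its signal was low, at 6.55, 5.92 and 6.18 in the BMI1 set and 6.02, 5.86 and 5.86 in the FAL-1 set. The lower quartile of an array lay between 5.72 and 5.84. FAXDC2 stood at 0.57 ± 0.22, and against the FAL-1 control at -0.08. LBR, a sterol reductase of the nuclear envelope, stood at -0.36 and -1.29 with the FAL-1 hairpins. The prenyl branch, which attaches or builds isoprenoid chains, had 6 of 13 lower and 5 higher with the BMI1 hairpins (median -0.14). Its RABGGTA was higher with both targets, at 0.47 ± 0.15 with the BMI1 and 0.67 ± 0.36 with the FAL-1 hairpins, and DHDDS stood at 0.34 ± 0.02 with the latter.

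A list of oxysterol enzymes, the liver X receptors that respond to oxysterols, and targets of these receptors was counted as 1. In it 7 of 14 genes measured were higher and 2 lower with both BMI1 hairpins (median 0.11). The targets were not counted alone. The cholesterol exporter ABCA1 stood at 0.64 ± 0.01 (SD, n = 2 hairpins) with the FAL-1 hairpins, and at 0.13 against the BMI1 control. NR1D1 stood at 0.34 with both FAL-1 hairpins, and at -0.07 against the BMI1 control. Of 35 measured genes of fatty acid elongation, activation and glycerolipid synthesis, 15 were lower and 9 higher with both BMI1 hairpins (median -0.10). On the lower side were the elongase ELOVL2 at -1.12 ± 0.54, the citrate carrier SLC25A1 at -0.69 ± 0.36 and the acyl-CoA synthetase ACSL1 at -0.55 ± 0.05. On the higher side were ACSL4 at 0.63 ± 0.16, or 0.05 against the FAL-1 control, and LPIN3 at 0.51 ± 0.01. With the FAL-1 hairpins ELOVL2 stood at -0.39 and -2.41, MID1IP1 at -0.47 ± 0.18 (-0.05 against the BMI1 control), and ACSL4 at 1.02 ± 0.69.

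Genes of fatty acid oxidation had 7 of 20 lower and 2 higher with both BMI1 hairpins (30.7% and 32.9% of all genes), with a median of -0.04. PPARA, a receptor that drives oxidation genes, stood at -0.51 ± 0.06 and ACADVL at 0.49 ± 0.25 (SD, n = 2 hairpins), although ACADVL read -0.02 against the FAL-1 control. HADH stood at -0.32 and -1.12 with the FAL-1 hairpins. No gene of these 5 lists passed limma's test in the comparisons made, in which 0% of all genes passed.

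Other gene groups differed between the same arrays. The FAL-1 control stood above the BMI1 control for 18 of 18 genes of the amino acid and integrated stress response, with a median of 1.14. Of all genes, 55.1% were higher there. Against the FAL-1 control 16 of 18 were lower with both FAL-1 hairpins (median -0.87) and 18 of 18 with both BMI1 hairpins (-1.02). The shares of all genes were 27.7% and 37.7%. Against the BMI1 control the medians were -0.04 and -0.06. DDIT3, a stress transcription factor, read 7.34, 8.29 and 8.39 in the BMI1 set and 10.07, 9.12 and 9.16 in the FAL-1 set. In the FAL-1 set CHAC1 read 9.97 in the control and 7.92 and 7.99 with the hairpins, SLC7A11 9.53, 6.54 and 7.44, and STC2 9.20, 7.26 and 7.22. In the BMI1 set SESN2 stood at 1.01 ± 0.13 (SD, n = 2 hairpins) against the BMI1 control and at -0.43 against the FAL-1 control, and ASNS, PHGDH and PSAT1, enzymes of amino acid synthesis, stood at -0.58 ± 0.38, -0.72 ± 0.11 and -0.49 ± 0.22. Mitosis genes were lower with both BMI1 hairpins than in the BMI1 control in 20 of 20 (median -0.56), beside 30.7% of all genes. Among them TOP2A stood at -0.72 ± 0.04, KIF20A at -0.78 ± 0.21 and UBE2C at -0.69. The mitosis genes were lowest with FAL-1 hairpin 2 (median -1.34 against its control, beside -0.07 with hairpin 1), where NUSAP1 stood at -1.48. The part of either list in the members' values was not tested.

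**Figure D4:**
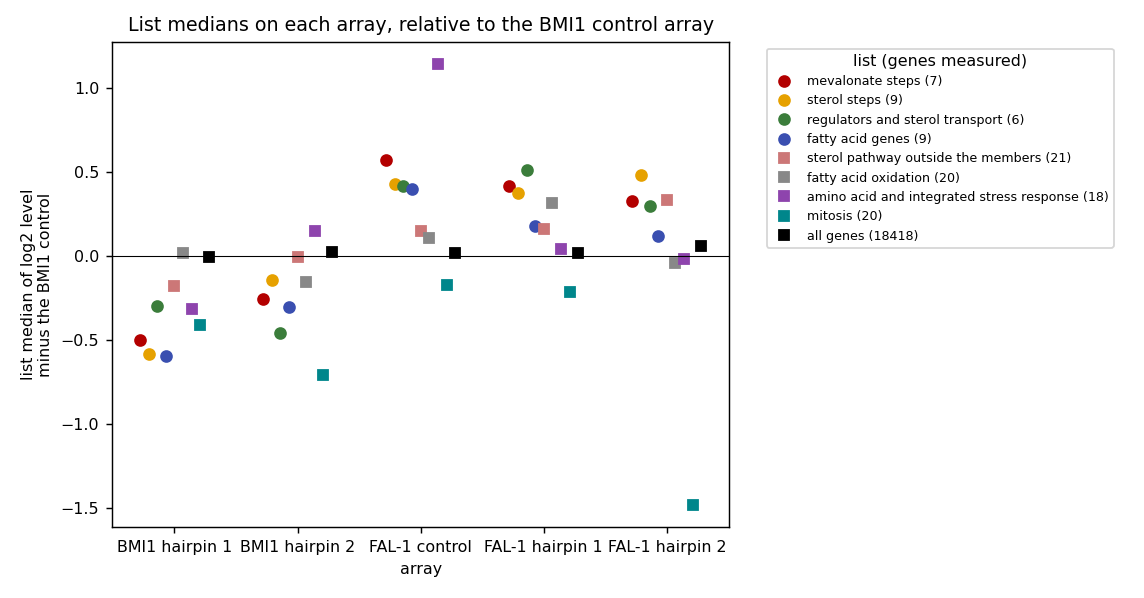
Median log2 level of gene lists and of all genes on 5 arrays, minus the BMI1 control array. Circles are the 4 groups of members. Squares are other lists and all genes, and the number of genes measured is in brackets. The prenyl list, the oxysterol and liver X receptor list, and the fatty acid elongation list are not drawn. The members' groups lie below 0 with both BMI1 hairpins and above 0 on the 3 FAL-1 arrays, the stress list is highest (1.14) on the FAL-1 control, and mitosis is lowest (-1.48) with FAL-1 hairpin 2.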

How the data were processed

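Expression was measured on 6 one-colour Affymetrix whole-transcript arrays. The authors deposited log2 values, and RMA is the tool that the submitters' processing notes name, with no word on whether the arrays were normalized together. The platform annotation gave a single symbol to 19460 of 33252 probe sets, several to 1754 and none to 12038, which were not listed or had no name. Values came from the first kind, for 18418 genes, and BMI1 alone was read from the second.

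All arrays entered 1 fit of 4 group means in limma 3.58.1 (R 4.3.3), two-sided, with Benjamini-Hochberg adjustment over all genes at 0.05. This assumes that each single control array varies as hairpins of a target do. Permutation was not used, since with 1 array against 2 the smallest exact p is 0.333. Lists were described by counts and medians, without a set test. The fit was also run on simulated data in which all arrays varied alike, so that run could not test the assumption on control arrays. The members, lists and motifs were chosen with earlier results of these data known, and genes named from other lists followed a rule of size: up to 3 per direction, at 0.3 or more with both hairpins. The number of arrays limits the precision. Alternatives were other normalizations, probe set means, filters, priors, a replicate block, pooled controls, thresholds and leaving out hairpins. Figures used matplotlib 3.10.9.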

Additional observations from a re-analysis of the deposited data

Results flagged for a closer look

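For 5 members both BMI1 hairpins were below their own control and both FAL-1 hairpins above theirs, as for 6.43% of all genes. The mean log2 changes with the BMI1 and the FAL-1 hairpins were -0.31 and 0.25 for MVK, -0.091 and 0.24 for TM7SF2, -0.18 and 0.15 for NSDHL, -0.62 and 0.16 for SREBF2, and -0.24 and 0.11 for ACACA. The test of the difference between the targets, in limma, passed for none of them (adjusted p = 0.9999 for each). At an unadjusted p under 0.05 the difference was positive for MVK, SREBF2 and SQLE (0.337% of all genes).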

How the results depend on the processing

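No member and no gene passed limma's adjusted threshold in any of the 6 comparisons under any alternative run, thresholds of 0.1 and 0.2 included, and the hairpin number as a replicate block likewise gave 0 members. Hairpins of the same number share only a number. Quantile normalization and cyclic loess moved the members' median for the BMI1 hairpins against the FAL-1 control to -0.72 and -0.74, and for the FAL-1 hairpins against their control to -0.07 in each case (-0.068 and -0.067), and the mean of probe sets moved the latter to -0.090. With pooled controls the medians were -0.62 for the BMI1 and 0.13 for the FAL-1 hairpins, a reversal against the FAL-1 control, with 0 members higher with the BMI1 hairpins, and 18 higher and 3 lower with the FAL-1 hairpins. With at least 0.3 required, 12 were lower and 0 higher for BMI1, 0 and 0 for FAL-1, and 13 higher for FAL-1 against the BMI1 control. At 1.5-fold these were 6 and 0, 0 and 0, and 4, and 19 were lower for BMI1 against the FAL-1 control. For the FAL-1 hairpins against the BMI1 control, 1 member was lower after either normalization.

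With 1 hairpin left out, the median lay from -0.50 to -0.29 for BMI1 against its control and from -0.96 to -0.81 against the FAL-1 control, with 2 members and 1 member higher. For FAL-1 it lay from -0.051 to -0.049 against its control, with 17 lower and 14 higher, and from 0.29 to 0.36 against the BMI1 control, with 1 to 9 lower. Single members changed sign between hairpins. For BMI1 these were MSMO1 (-0.94 to 0.11) and STARD4 (-0.15 to 0.26), and, against the FAL-1 control, SC5D (-0.29 to 0.058) and SCAP (-0.16 to 0.013). For FAL-1 against its control they were ACAT2 (-0.20 to 0.022), HMGCS1 (-0.13 to 0.27), PMVK (-0.034 to 0.21), MVD (-0.16 to 0.066), LSS (-0.46 to 0.10), CYP51A1 (-0.16 to 0.0087), MSMO1 (-0.069 to 0.51), EBP (-0.20 to 0.014), SC5D (-0.12 to 0.26), DHCR7 (-0.24 to 0.14), SREBF1 (-0.53 to 0.12), SCAP (-0.013 to 0.19), INSIG2 (-0.63 to 0.057), ACSS2 (-0.50 to 0.13), FASN (-0.071 to 0.078) and LPIN1 (-0.19 to 0.078). Against the BMI1 control they were FDPS (-0.30 to 0.26), LSS (-0.015 to 0.55), EBP (-0.036 to 0.18), SREBF1 (-0.10 to 0.54), SCAP (-0.13 to 0.066), INSIG2 (-0.39 to 0.30), ACLY (-0.047 to 0.048), ELOVL6 (-0.16 to 0.18), FADS1 (-0.34 to 0.24) and FADS2 (-0.56 to 0.15).

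With pooled controls, STARD4 turned to -0.46 relative to the value against the BMI1 control, and SC5D to 0.10 relative to that against the FAL-1 control, for the BMI1 hairpins. For the FAL-1 hairpins, relative to the values against the FAL-1 control, these turned to 0.064 for ACAT2, 0.24 for MVD, 0.02 for IDI1, 0.13 for SQLE, 0.042 for LSS, 0.18 for CYP51A1, 0.31 for DHCR7, 0.0088 for SREBF1, 0.22 for INSIG1, 0.17 for ACSS2, 0.035 for SCD and 0.38 for LPIN1. Relative to those against the BMI1 control they turned to -0.011 for EBP, 0.027 for SCAP, -0.12 for ACLY and -0.19 for ELOVL6. Quantile normalization and cyclic loess turned SCAP, for the BMI1 hairpins against the FAL-1 control, to 0.037 and 0.027. For the FAL-1 hairpins against the BMI1 control they turned ACLY to -0.053 and -0.025 and ELOVL6 to -0.013 and -0.033. Against the FAL-1 control quantile normalization turned MVD to 0.012 and FASN to -0.0019. The causes were not tested. The shorter promoter core was in 6 start sites in place of 1. Among genes above the median level, a background chosen after the data were seen, 37.7% were lower with both BMI1 hairpins against the BMI1 control, beside 26 of 29 members.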
